A study of Homo sapiens with 4 samples.

Results

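Intermediate filaments are the rope-like fibres that give animal cells their mechanical strength, and the genes described here encode them. A gene was included if its symbol on the array was KRT followed by a number (a keratin), or if it was VIM, DES, GFAP, PRPH, NES, SYNM, INA, NEFL, NEFM, NEFH, LMNA, LMNB1 or LMNB2. The arrays carried a probe for 62 such genes, made up of 28 type I keratins, 21 type II keratins, 4 type III proteins, 6 type IV proteins and 3 nuclear lamins. Of these 62, 13 were detected and tested, and all 13 were detected on each of the 4 arrays. The rule used symbols and no measured value.

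Gene expression was measured in cells labelled HepG2, an established human liver cancer line, after transfection with siRNA against PATZ1 (siPATZ1) or with a scrambled control siRNA (siCTRL). PATZ1, also called MAZR, is a zinc finger transcription factor. Each group had 2 Illumina bead arrays (n = 2), and both groups received 60 pmol of siRNA for 48 h, so that transfection itself was shared. Whether the duplicates were separate cultures is not stated in the labels, and the p-values therefore measure only how far these arrays spread, which may be technical variation. All 3 PATZ1 probes were undetected on all 4 arrays, with a lowest detection p of 0.0649, so the knockdown could not be checked on the arrays. The study itself reported less PATZ1 mRNA by qRT-PCR and less protein by western blot in siPATZ1-treated HepG2 cells. Whether those were the cultures used for the arrays is not stated in the labels.

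The mean signal of the arrays was 492 to 555 and the number of detected probes was 14222 to 15980, with more on each siPATZ1 array than on either siCTRL array. A probe was called detected at a detection p under 0.01, the detection p being the rank of its signal among the negative controls of the same array. The labelled cell type was also checked against its markers. Of 19 hepatocyte markers with a probe, 15 were undetected on every array, including AFP (75.4 to 77.6 signal units), the fetal serum protein for which HepG2 cells are known, and APOA1, APOB and TTR. The hepatocyte markers tested were ALB (157 to 202), FOXA1, FOXA2 and CPS1, none of which passed the test. Of 12 epithelial markers, 9 were undetected on every array, the junction genes CDH1 and EPCAM among them. The other 3, TJP1 (830 to 996), CDH3 (204 to 293) and OVOL2 (177 to 199), were detected on all 4 arrays. Of the secreted liver proteins in the list, only ALB was detected. The label HepG2 was therefore not borne out by the others, and it is kept below only as a label. All 5 endothelial markers and 4 of 5 leukocyte markers, PTPRC among them, were undetected.

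Keratins form filaments only as pairs, with a type I chain bound to a type II chain. KRT8 and KRT18 are the pair of simple epithelia and the only keratins that hepatocytes normally make, whereas KRT7 and KRT19 belong to bile duct cells. VIM is the filament protein of mesenchymal cells, type IV proteins are best known from neurons and muscle, and lamins form the meshwork under the inner nuclear membrane in nearly every cell. In the reference annotation the type II keratin genes lie next to each other on chromosome 12 and most type I genes on chromosome 17. KRT18 is the exception among type I genes and is the direct neighbour of KRT8.

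Promoter sequences are shown for KRT8, SYNM and VIM. KRT8 was the only type II keratin detected, and SYNM the only gene of the set called higher at an adjusted p under 0.05. VIM is the type III protein best known from mesenchyme. Each sequence is the 250 bases before an annotated start from RefSeq (GRCh38.p14). They lie at chr12:52926470-52926719 on the minus strand for KRT8, at chr15:99104830-99105079 on the plus strand for SYNM and at chr10:17227991-17228240 on the plus strand for VIM. Capitals mark GGGGAGG, the longer GGGGAGGTG that contains it, and GGGCGG, the letters of the GC box, on either strand.
KRT8: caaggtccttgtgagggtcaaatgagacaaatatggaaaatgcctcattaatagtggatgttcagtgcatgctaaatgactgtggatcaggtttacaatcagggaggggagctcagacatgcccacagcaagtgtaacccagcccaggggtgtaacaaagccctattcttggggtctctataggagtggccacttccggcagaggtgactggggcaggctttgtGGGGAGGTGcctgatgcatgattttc
SYNM: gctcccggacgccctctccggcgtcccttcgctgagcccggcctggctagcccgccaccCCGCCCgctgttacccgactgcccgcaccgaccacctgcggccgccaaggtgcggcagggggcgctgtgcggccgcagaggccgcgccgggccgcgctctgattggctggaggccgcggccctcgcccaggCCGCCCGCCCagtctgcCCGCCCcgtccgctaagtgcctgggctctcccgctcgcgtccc
VIM: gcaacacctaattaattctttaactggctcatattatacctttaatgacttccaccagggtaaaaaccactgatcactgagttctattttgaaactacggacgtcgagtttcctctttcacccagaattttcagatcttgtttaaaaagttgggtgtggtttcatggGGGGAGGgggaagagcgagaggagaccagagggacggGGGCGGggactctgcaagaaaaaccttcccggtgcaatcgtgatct
GGGGAGGTG was searched because it is the putative PATZ1 binding site that the study mutated in a CDKN1B reporter. It was found once in the KRT8 window, where its first base lay 26 bases before the start, and 1.43% of the 35116 promoter windows of the same length held it on either strand. The shorter GGGGAGG was present in 22.5% of all windows and in 5 of the 11 windows of detected genes, 1 each for KRT8, VIM, PRPH, LMNA and LMNB1. GGGCGG was present in 42.6% of all windows, and the SYNM window held 4 copies, some of them overlapping in the capitals above. TATAAA, the letters of the TATA box, was in 10.7% of all windows and in those of KRT10 and PRPH. LMNA had 3 windows and LMNB1 had 2, one for each annotated start. A match of letters describes the sequence and does not show a binding site. Whether a window belongs to the transcript that the probe of its gene reads was not checked. KRT16, KRT18, KRT19, KRT222 and NEFL are named only.

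In siPATZ1-treated cells, SYNM was 1.38-fold higher and KRT16 was 1.41-fold lower than in siCTRL-treated cells. These were the only calls among the 13 genes, at an adjusted p under 0.05 over all 9435 genes tested. The 1 gene higher compares with 7.78% of all genes tested, and the 1 gene lower with 6.96%. The other 11 genes did not pass, and both calls were close to the threshold, passing in 9 (SYNM) and 4 (KRT16) of 15 other settings. At the 1.4-fold threshold of the study, with no test, 0 of the 13 genes were higher (8.63% of all genes) and 2, PRPH and KRT16, were lower (7.41% of all genes).

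The direction of the values was less even than these counts. For 10 of the 13 genes, both siPATZ1 arrays lay above both siCTRL arrays, against 30.1% of all genes tested. For the other 3, KRT16, KRT19 and PRPH, both siPATZ1 arrays lay below, against 29.9% of all genes. No gene of the set had overlapping groups on the normalized scale. The median log2 fold change of the 13 genes was 0.23, beside -0.00085 for all genes. This pattern depends in part on the scale. On the unscaled signals the same 10 genes lay above, but so did 52.3% of all genes, and only KRT16 lay wholly below, with 13.05% of all genes. On the signals that the authors scaled to a common mean, 10 genes lay above and 2 below, beside 36.4% and 24.3% of all genes. The 13 genes also sat toward the bright end of the arrays, with 6 in the brightest of 4 equal groups of genes, where the median log2 fold change of all genes was 0.01.

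**Figure D1:**
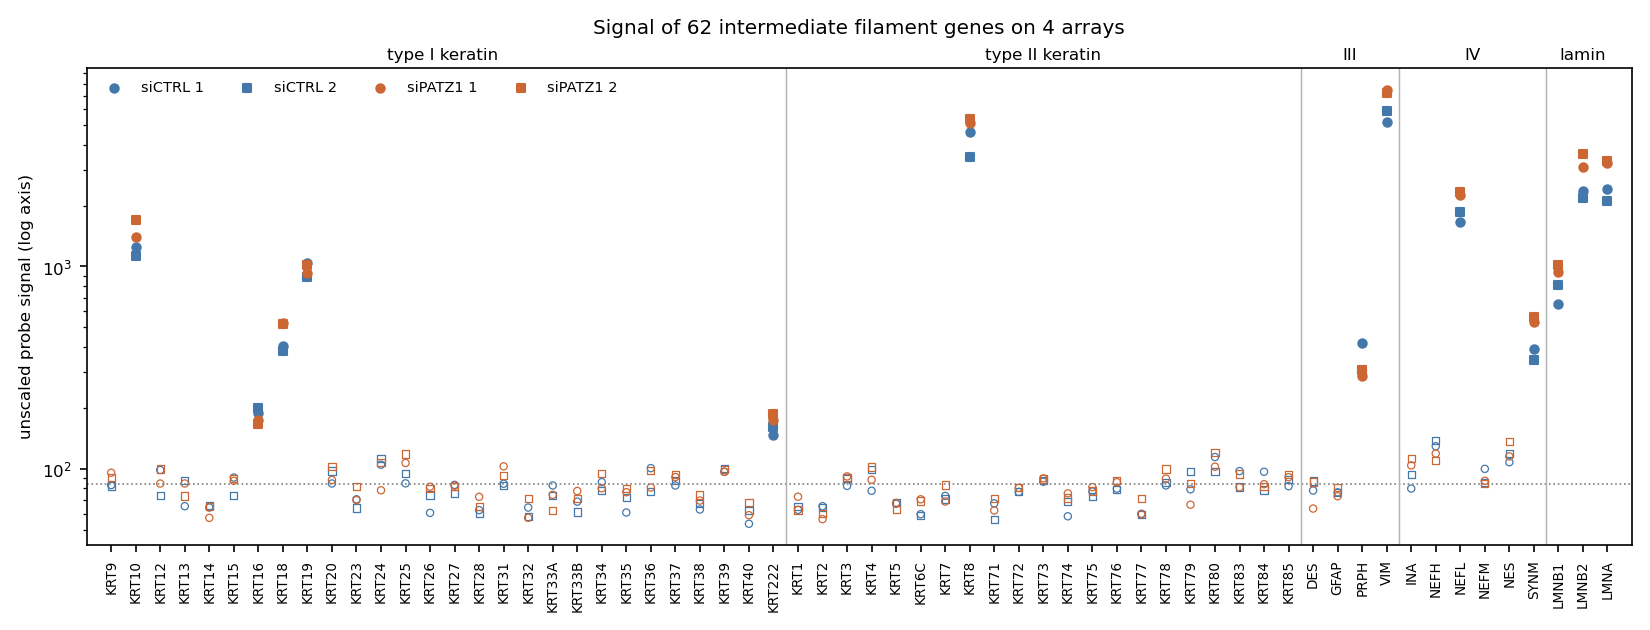
Unscaled probe signal (log axis) of the 62 genes on each of the 4 arrays, in order of filament class, with 1 probe per gene. Filled symbols are detected (detection p under 0.01), open symbols are not, circles are replicate 1 and squares replicate 2, and the dotted line is the mean over arrays of the median undetected signal. The 13 detected genes are filled on all 4 arrays, and the other 49 lie around the dotted line. Levels of different probes are not comparable.

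KRT8, the type II keratin of simple epithelia, had signals of 4613 and 3493 under siCTRL and 5119 and 5349 under siPATZ1. On the normalized log2 scale these were 12.18 and 11.85 against 12.29 and 12.26. Both siPATZ1 arrays were above both siCTRL arrays, but siCTRL 1 lay closer to them than to siCTRL 2. The log2 fold change was 0.25 (SE 0.14, 95% interval -0.08 to 0.59), with an adjusted p of 0.274. Leaving out siCTRL 2 lowered it to 0.09 and leaving out siCTRL 1 raised it to 0.42, both without a call.

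KRT18, its type I partner, had 405 and 381 signal units under siCTRL and 526 and 521 under siPATZ1. The replicates lay close together, and the groups did not overlap. The log2 fold change was 0.28 (SE 0.12, 95% interval 0.00087 to 0.56), close to that of KRT8, and the adjusted p was 0.16. A second KRT18 probe, designed against another transcript record, gave 223 and 183 against 301 and 286, a log2 difference of 0.54. Both probes lay higher on the siPATZ1 arrays, with the larger difference on the second. Genes for KRT8 and KRT18 have many processed pseudogene copies, and whether these add to the signals was not tested.

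KRT19, a small type I keratin of ductal and progenitor cells, had normalized log2 values of 10.01 and 9.81 under siCTRL and 9.67 and 9.76 under siPATZ1. On the unscaled signals, 1040 and 890 against 932 and 1017, the groups overlapped. The log2 fold change was -0.20 (SE 0.13), with an adjusted p of 0.346, and it was -0.10 without siCTRL 1. KRT7, which marks bile duct cells together with KRT19, was undetected on all 4 arrays (68.9 to 83.2).

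KRT16, a type I keratin known from stressed and wounded epidermis, had normalized log2 values of 7.03 and 7.16 under siCTRL and 6.71 and 6.49 under siPATZ1. Both siPATZ1 arrays were lower, by more than the replicates of either group differed. The log2 fold change was -0.49 (SE 0.14), with an adjusted p of 0.0486. It passed in 4 of 15 other settings and missed the threshold in the rest, among them no background correction (log2 fold change -0.31, adjusted p = 0.0683) and each array left out in turn (-0.59 to -0.38, adjusted p from 0.0553 to 0.334). The signals behind it were low, at 188 and 199 against 175 and 167, or 1.88 to 2.39 times the median undetected signal of the same array. A second KRT16 probe was undetected on all arrays (84.2 to 97.6), so the fall rests on 1 dim probe. KRT16 also belongs to a group of near-identical genes and pseudogenes with KRT14 and KRT17. KRT14 was undetected, and KRT17 had no probe among those named here.

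KRT10, the type I keratin of differentiated epidermis, had signals of 1253 and 1125 under siCTRL and 1402 and 1691 under siPATZ1, with a log2 fold change of 0.20 (SE 0.13) and an adjusted p of 0.344. Its usual type II partner KRT1 was undetected on all 4 arrays. KRT222, a short keratin-related gene, had signals of 146 and 161 against 174 and 186. Its log2 fold change was 0.18 (SE 0.14) and its adjusted p 0.401. Neither gene passed the test, and both values depended on single arrays. KRT10 was 0.10 without siPATZ1 2 and 0.31 without siPATZ1 1, and KRT222 was 0.05 without siCTRL 1 and 0.32 without siCTRL 2. KRT8 was the only type II keratin detected, beside 5 of type I.

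**Figure D2:**
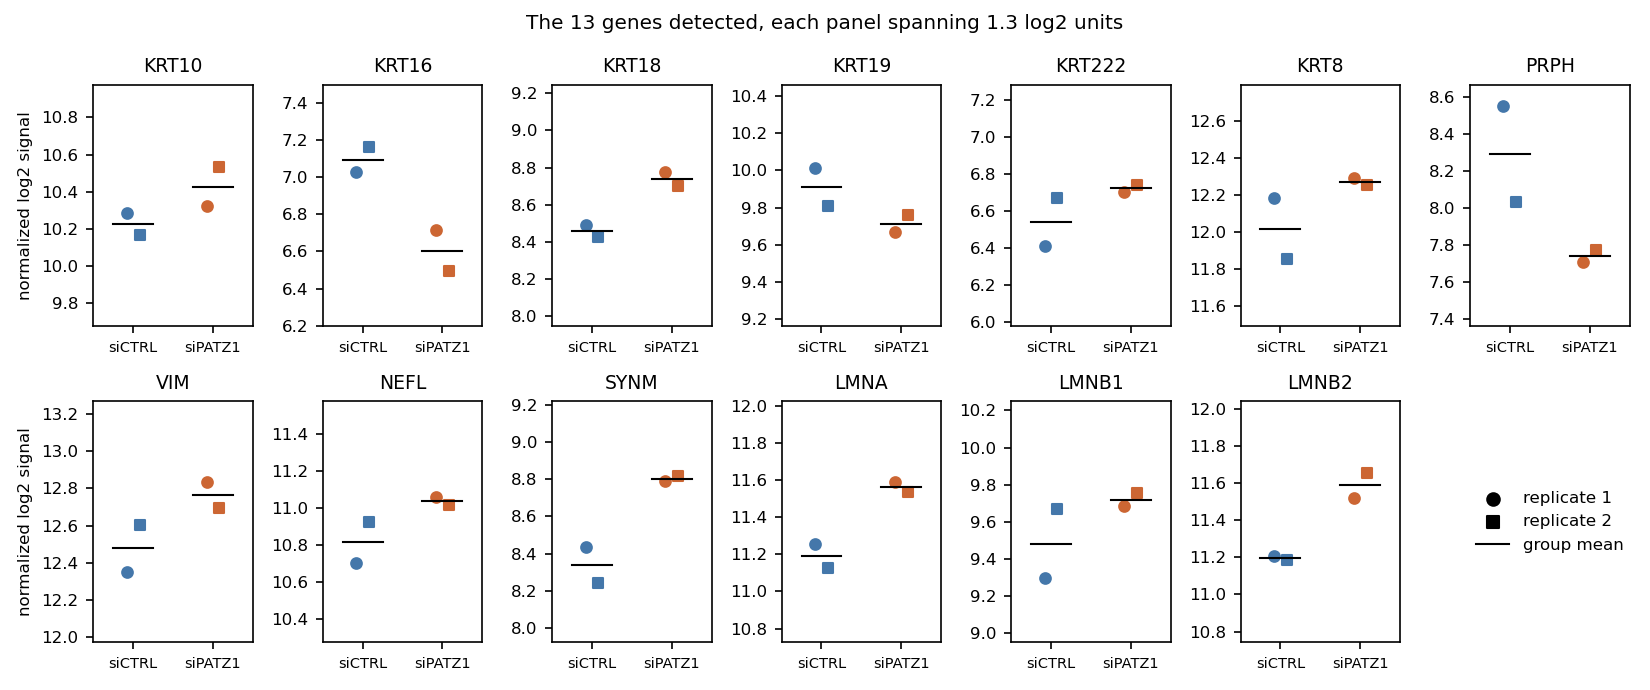
Normalized log2 signal on each array of the 13 detected genes, 1 panel per gene, for siCTRL and siPATZ1 (circles replicate 1, squares replicate 2, bars the group mean of 2 arrays). Every panel spans the same range of log2 units around the gene's own mean. The siPATZ1 arrays lie above the siCTRL arrays in 10 panels and below in those of KRT16, KRT19 and PRPH.

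VIM, which encodes vimentin, was detected with 2 probes. The first had signals of 5194 and 5892 under siCTRL and 7491 and 7235 under siPATZ1, and its log2 fold change was 0.29 (SE 0.14) with an adjusted p of 0.206. The second probe had signals of 3373 and 3040 against 4602 and 4806, and a log2 difference of 0.42 (SE 0.12). Both probes lay higher on both siPATZ1 arrays. Without siCTRL 1 the first probe gave 0.16. With the probe of smallest p taken for each gene, VIM passed at an adjusted p of 0.0489. That choice used the p-values of the same comparison, and the adjustment did not allow for it. Over all genes that setting gave 939 higher and 830 lower, against 734 and 657 with the brightest probe.

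PRPH, which encodes peripherin, a type III protein of peripheral neurons, had the largest log2 fold change of the set in size, -0.55 (SE 0.18), and did not pass at an adjusted p of 0.0773. Its normalized log2 values were 8.55 and 8.03 under siCTRL and 7.71 and 7.78 under siPATZ1. The siCTRL arrays differed from each other by 0.52, nearly as much as the groups. Without siCTRL 1 the log2 fold change was -0.29, and without siCTRL 2 it was -0.80 with an adjusted p of 0.00903. On the unscaled signals, 419 and 307 against 287 and 308, the groups overlapped by a small margin. The other type III genes, DES of muscle and GFAP of glia, were undetected.

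SYNM encodes synemin, a large type IV protein that joins vimentin or desmin filaments and does not form filaments alone. Its signals were 393 and 345 under siCTRL and 531 and 563 under siPATZ1, or 8.44 and 8.24 against 8.79 and 8.82 on the normalized log2 scale. The groups were well apart, and the siPATZ1 arrays were almost equal. The log2 fold change was 0.46 (SE 0.13, 95% interval 0.17 to 0.76), with an adjusted p of 0.0488. It passed in 9 of 15 other settings and missed the threshold in the rest, among them siCTRL 2 left out (0.36, adjusted p = 0.093) and either siPATZ1 array left out (adjusted p = 0.224 and 0.269). A second SYNM probe, for another transcript record, was undetected on all arrays (76.6 to 102). NEFL, the light neurofilament chain, was the other type IV gene detected, with 1664 and 1856 against 2268 and 2340 signal units. Its log2 fold change of 0.22 (SE 0.13) did not pass (adjusted p = 0.296), and it was 0.11 without siCTRL 1. The heavier neurofilament chains NEFM and NEFH, with which NEFL forms filaments in neurons, were undetected, as were INA and NES.

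All 3 lamin genes were detected, and all had both siPATZ1 arrays above both siCTRL arrays without a call. LMNB2, a B-type lamin, had signals of 2351 and 2189 under siCTRL and 3112 and 3608 under siPATZ1. Its log2 fold change was 0.39 (SE 0.12), with an adjusted p of 0.0702. LMNA, which encodes the A-type lamins, had 2419 and 2113 against 3256 and 3318, a log2 fold change of 0.37 (SE 0.12) and an adjusted p of 0.081. These differences were larger than the spread within either group. A second LMNA probe gave a smaller log2 difference of 0.24 (SE 0.17). LMNB1, the other B-type lamin, had 655 and 812 against 938 and 1013 signal units, and its siCTRL arrays differed by 0.37 on the normalized log2 scale. The log2 fold change of LMNB1 was 0.23 (SE 0.15, adjusted p = 0.337), and it was 0.05 without siCTRL 1 and 0.42 without siCTRL 2.

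**Figure D3:**
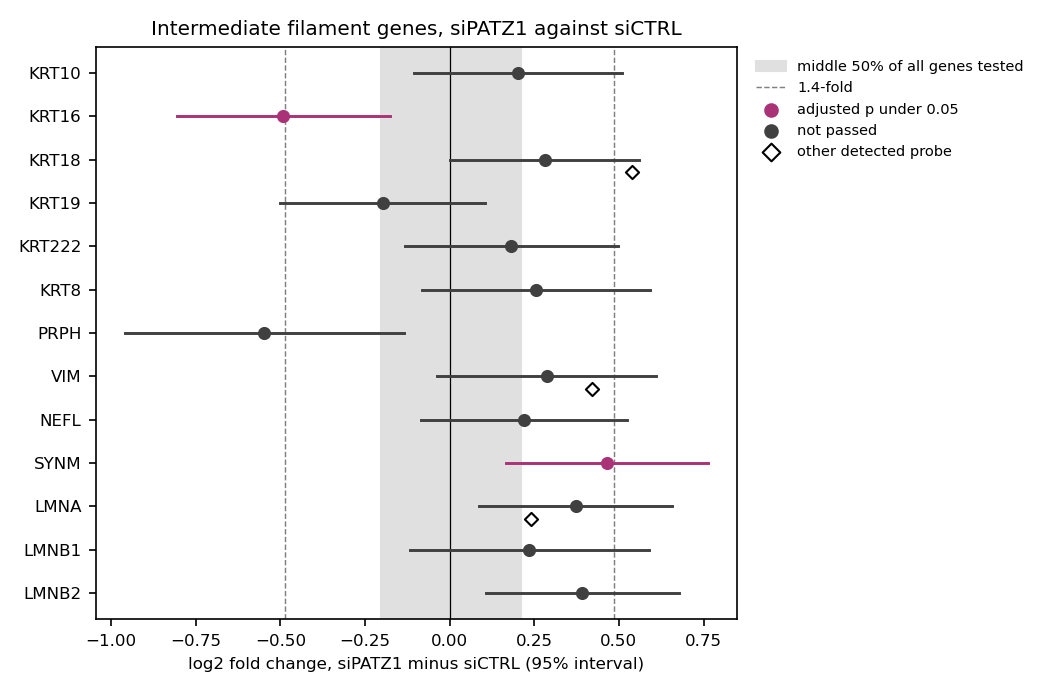
Log2 fold change (siPATZ1 minus siCTRL) with its 95% interval from limma for the 13 detected genes. Purple marks an adjusted p under 0.05 (SYNM at 0.46 and KRT16 at -0.49), diamonds are the other detected probe of KRT18 (0.54), VIM (0.42) and LMNA (0.24), the grey band is the range between the quartiles of all 9435 genes (-0.20 to 0.21) and dashed lines are 1.4-fold.

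The remaining 49 genes were not detected in either group and were not tested. They comprised 43 of the 49 keratins and 6 of the other 13 genes, so 21.0% of the set was tested against 47.1% of the 20045 genes with a named probe. Their 56 probes read 53.5 to 138 signal units, beside a median undetected signal of 82.8 to 88.6. None of these genes was detected on even 1 array. The undetected keratins included the basal pair KRT5 and KRT14, the suprabasal KRT1 and KRT2, KRT20 of gut epithelium, and hair keratins such as KRT31 and KRT85. KRT80 came nearest among the keratins, at a lowest detection p of 0.0416, and NES, a protein of neural stem cells, came nearest of all at 0.0117. For 45 of the 49 genes every probe had a detection p of at least 0.05 on all arrays. An undetected probe is below the limit of the array and is not evidence that the gene was silent. KRT6A, KRT6B, KRT17, KRT81, KRT82 and KRT86 had no probe among those named here.

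Partner genes were counted from lists. Of 20 desmosome and plakin genes, whose proteins anchor keratin filaments at cell junctions, 9 were tested, 1 rose and 0 fell, with a median log2 fold change of -0.19. Over all genes tested, 7.78% rose and 6.96% fell, so 1 of 9 was near that share. The gene that rose was PKP2, a plakophilin of the desmosomal plaque, with 206 and 187 signal units under siCTRL and 303 and 313 under siPATZ1 (log2 fold change 0.69, adjusted p = 0.0152). DSP, which encodes desmoplakin, the main link from keratin to the desmosome, read 994 and 1091 against 1034 and 1066 and did not pass (log2 fold change -0.19, adjusted p = 0.347). PLEC, which encodes the cross-linker plectin, did not pass either (log2 fold change -0.12).

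Among 21 genes of lamina partners and prelamin processing, 18 were tested, 2 rose (7.78% of all genes) and 1 fell (6.96%), with a median of 0.03. ICMT, the enzyme that methylates the farnesylated end of prelamin A and of B-type lamins, read 611 and 634 under siCTRL and 1108 and 1231 under siPATZ1. It was 1.72-fold higher (log2 fold change 0.78, adjusted p = 0.00889). TOR1AIP2, a torsin activator of the endoplasmic reticulum and nuclear membranes, had a log2 fold change of 0.77 (adjusted p = 0.0293). It was detected on 1 siCTRL array and both siPATZ1 arrays, so it passed the detection filter only through the group in which it was higher. Among the 17 genes of the list detected on all 4 arrays, 1 rose and 1 fell. RCE1, the protease that acts on farnesylated proteins before ICMT, fell by 0.51 on the log2 scale (adjusted p = 0.037), while its other detected probe had a log2 difference of 0.19 in the opposite direction. ZMPSTE24, which cleaves prelamin A, did not pass (log2 fold change -0.09), nor did LBR, the lamin B receptor (0.46, adjusted p = 0.179).

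Of 11 genes for filament turnover and organisation, 10 were tested, 0 rose (7.78% of all genes) and 2 fell (6.96%), with a median of 0.07. KLHL24, a ubiquitin ligase adaptor whose known substrate in skin is KRT14, read 380 and 368 under siCTRL and 253 and 288 under siPATZ1 (log2 fold change -0.82, adjusted p = 0.00874). FAM83H, a protein that brings casein kinase to keratin filaments, read 348 and 361 against 258 and 286 (log2 fold change -0.70, adjusted p = 0.0132). Both falls were larger than the spread between replicates. No gene of these 3 lists passed without siPATZ1 1 or without siPATZ1 2. Of 6 further filament family genes outside the rule, 2 were tested and 0 passed.

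Because VIM is read as a mesenchymal marker and keratins as epithelial ones, these marker lists were set beside them. Of 15 mesenchymal genes other than VIM, 7 were tested, 3 rose (7.78% of all genes) and 1 fell (6.96%), with a median log2 fold change of 0.46. This median is the value of COL3A1, detected on 1 siCTRL array and both siPATZ1 arrays. COL3A1 thus passed the detection filter only through its higher group, as did COL1A1 through siCTRL. With only genes detected on all 4 arrays kept, 5 were tested, 3 rose and 1 fell, with a median of 0.49. The median of the 7 was 0.27 with no background correction and 0.28 on the authors' scaled signals. CDH2, the N-cadherin gene, rose by 0.66 (adjusted p = 0.0382), ACTA2 by 0.82 (adjusted p = 0.029) and TWIST1 by 0.49 (adjusted p = 0.045). SPARC fell by 0.89 (adjusted p = 0.00826), and the defining markers FN1, ZEB1 and SNAI1 were undetected. The summed unscaled signal of the 15 genes, 8 undetected ones included, was 3561 to 4296 under siCTRL and 5753 to 6043 under siPATZ1. Without CDH2 and ACTA2 it was 1582 to 1632 against 1686 to 1771, so these genes carried most of the difference in the sum. Both are sums on a scale where 52.3% of all genes lay above. Of 12 epithelial genes, 3 were tested and 0 passed, with a median log2 fold change of -0.02. Their summed unscaled signal, 9 undetected genes included, was 1970 to 2081 against 2211 to 2312, on that same scale. The part of these markers in the values of VIM and the keratins was not tested. None of the mesenchymal genes passed without siPATZ1 1 or without siPATZ1 2. In bulk RNA, fewer cells of a type and less RNA per cell cannot be told apart.

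The 13 fold changes were then followed over 15 other settings of the processing or of the arrays used. All 13 kept their sign in each of the 15. The changes of detection filter and the replicate block left every value as it was, so no sign could change there. Leaving out 1 array could hardly change a sign either, because no gene of the set had overlapping groups on the normalized scale. The probe choice could alter only the 3 genes with several detected probes. A change of sign was therefore open mainly under the other background corrections and normalizations. SYNM ranged from 0.36 to 0.57 and passed in 9 of the 15, whereas KRT16 ranged from -0.59 to -0.30 and passed in 4. LMNB2 (0.33 to 0.46) passed in 4, LMNA (0.30 to 0.44) in 2, PRPH (-0.80 to -0.29) in 2 and VIM (0.16 to 0.42) in 1. The other 7 genes passed in 0 settings. The 1 pass of VIM came with the probe of smallest p, a choice made on the p-values themselves. SYNM lost its call when either siPATZ1 array or siCTRL 2 was left out, and KRT16 lost its call when any 1 of the 4 arrays was left out.

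**Figure D4:**
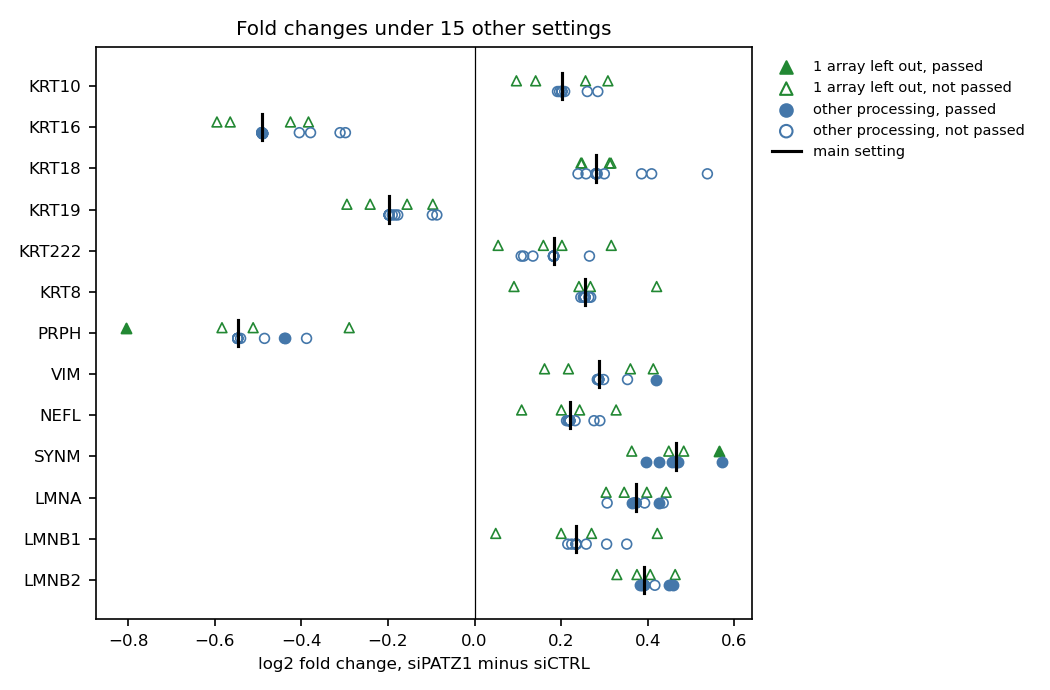
Log2 fold change (siPATZ1 minus siCTRL) of the 13 detected genes under 15 other settings. Triangles leave out 1 array, circles change the processing, filled symbols have an adjusted p under 0.05 and black bars are the values reported. No symbol crosses 0, and SYNM has 9 filled symbols and KRT16 has 4.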

How the data were processed

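The authors deposited a table of unscaled probe intensity for 47323 probes, with a detection p-value beside each intensity, and a second table of 47321 probes whose intensity is scaled to a common mean. Against the unscaled table, the factors were 1.03 and 1.05 for siCTRL 1 and 2, and 0.991 and 0.934 for siPATZ1 1 and 2. GenomeStudio is named in the submitters' processing notes, and for the array probes a genome build was not given in the sources used.

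Normalization of the unscaled table used limma 3.58.1 (R 4.3.3), with a normexp background correction fitted from the detection p-values (offset 16), quantile normalization and log2. Gene names came from the platform annotation, updated through RefSeq (30112 probes had 1 gene, 8 several and 17203 none). Probes had to reach a detection p under 0.01 on both arrays of 1 group or of both (15090 probes), and the brightest such probe over all 4 arrays stood for its gene (9435 genes). Differences were fitted with lmFit and eBayes (2 residual and 5.74 prior degrees of freedom), with Benjamini-Hochberg adjustment over all genes tested. The fit was also tested on data simulated from its own variance model, which does not check that model on these arrays. The number of arrays limits the precision.

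All detected genes of the set were named, and from each list those past an adjusted p of 0.05, at most 4 in each direction, while members described as not passing are examples. The members and lists were chosen with earlier results of these data known. Alternatives changed the background correction, normalization, detection filter, probe choice, test, arrays and replicate block.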

Additional observations from a re-analysis of the deposited data

How the results depend on the processing

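Calls over the 9435 genes numbered 734 higher and 657 lower with siPATZ1. The genes higher were 1145 with median scaling and 1130 on the authors' scaled signals, which made 71.7% and 63.8% of the calls higher in place of 52.8%. With no detection filter, which tested 62 genes of the set, 191 genes were higher and 152 lower. The methods' t-test called 925 higher and 947 lower unadjusted, and 1 and 0 after Benjamini-Hochberg. Leaving out each array in turn gave 110 to 992 higher and 85 to 917 lower, the lowest counts without a siPATZ1 array, and the lone array is then assumed to vary like the other group.

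Of the filament genes, 1 was higher and 1 lower. Counts over all genes tested follow in brackets, out of 9435 unless stated. The genes higher were 3 with no background correction (890) and on the authors' scaled signals (1130). They were 2 with an offset of 50 (850), with median scaling (1145) and with the detected probe of smallest p (939). They were 4 by the methods' t-test unadjusted (925), 0 after its adjustment (1) and 0 at 1.4-fold (814). They were also 0 with no detection filter (191 of 20045) and at a detection p under 0.05 (562 of 10882). The genes lower were 2 at 1.4-fold (699), and 0 with an offset of 50 (798), with median scaling (451) and on the scaled signals (640). They were also 0 with no detection filter (152 of 20045) and at a detection p under 0.05 (503 of 10882). By the methods' t-test they were 0 in both forms (947 unadjusted and 0 adjusted). Leaving out each array in turn gave 0 to 1 higher and 0 to 1 lower.

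The labels give both groups the replicate numbers 1 and 2, and deviations of same-numbered arrays correlated at -0.05. With 2 arrays a group, this value cannot tell whether same-numbered arrays shared a culture or a batch. With the replicate block, 596 genes were higher and 507 lower, and 0 filament genes passed in either direction (SYNM adjusted p = 0.0744, KRT16 adjusted p = 0.0759). Of 234 values of single filament genes under the alternatives, 0 changed sign, 21 lost a call and 13 gained one. The t-tests, 1.4-fold alone, the detection filters and the replicate block left the fold changes as they were, so no sign could change there. Leaving out 1 array could hardly change a sign, as no filament gene tested had overlapping groups on the normalized scale. The probe choice left all but 3 genes as they were, so most of these values could not have changed sign. The causes were not tested. Undetected probes and the low signal of KRT16 over background limit what the arrays can show.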
